A study of Mus musculus with 12 samples.

Results

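The cytosolic ribosomal protein genes were examined in gastrocnemius muscle, a calf muscle, of mice with and without a deletion of Ank2 in skeletal muscle. Ank2 encodes ankyrin-B, an adaptor that ties membrane proteins to the spectrin cytoskeleton. Genes were chosen by symbol alone: an Rpl or Rps symbol with a number, Rplp0, Rplp1, Rplp2, Rpsa, and the related genes whose symbol ends in l. This gave 82 of the 24528 genes in the deposited table. They comprised 43 genes of the large subunit, 30 of the small subunit with Rpsa among them, 3 of the P-stalk and 6 paralogs ending in l. Of the 82 genes, 79 had enough reads to be tested.

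Messenger RNA was selected by its poly-A tail and sequenced from bulk tissue of 12 male mice aged 4 months, 1 library per mouse. The 6 WT mice were Ank2f/f, with both Ank2 alleles floxed and no Cre. The 6 KO mice were Ank2f/f; HSA-Cre+, the same floxed alleles with Cre under the human skeletal actin promoter, which is active in muscle fibres. Both groups thus carried the floxed alleles, controls were littermates caged with the KO mice, and no Cre-only group was analysed here. Vessel, nerve, connective tissue and blood cells in the samples kept an intact Ank2 gene, and in bulk RNA fewer cells of a type and less RNA per cell cannot be told apart.

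A eukaryotic ribosome is built from ribosomal RNA and one copy of most ribosomal proteins, so the genes of the family are normally expressed together. Their mRNAs are short and abundant, and most begin with a C followed by a run of pyrimidines, the terminal oligopyrimidine (TOP) tract, through which mTORC1 and the binding protein LARP1 adjust their translation. A few of the genes have paralogs with restricted expression. Rpl3l, a paralog of Rpl3 made in skeletal muscle and heart, is the best known in this tissue; Rpl10l and Rpl39l are known from the male germ line, and Rps27l is a widely expressed relative of Rps27.

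The starts of the coding sequences of both protein-coding pairs that were expressed are shown because the comparison of a paralog with its ubiquitous gene rests on reads that can tell them apart. Each runs from the start codon over 90 bases, 5′ to 3′, in the GENCODE M21 transcript, and capitals mark the bases that differ within a pair, 21 for Rpl3l and Rpl3 and 24 for Rps27l and Rps27.
Rpl3l: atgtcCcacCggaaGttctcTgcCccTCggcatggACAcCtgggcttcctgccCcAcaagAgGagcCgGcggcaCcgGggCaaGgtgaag
Rpl3: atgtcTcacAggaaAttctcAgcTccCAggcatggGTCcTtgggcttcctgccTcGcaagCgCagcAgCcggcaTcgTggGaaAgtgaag
Rps27l: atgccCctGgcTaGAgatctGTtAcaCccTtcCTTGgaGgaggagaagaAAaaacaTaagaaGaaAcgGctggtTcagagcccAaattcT
Rps27: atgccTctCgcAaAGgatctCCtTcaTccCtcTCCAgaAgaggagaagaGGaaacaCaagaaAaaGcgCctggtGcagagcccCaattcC

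Over the whole aligned coding sequence, Rpl3l and Rpl3 were identical at 73.8% of bases, with a longest shared run of 22 bases. Rps27l and Rps27 were identical at 76.2%, with a longest shared run of 11 bases. Both runs are far shorter than the fragments the labels describe. The annotation types Rps4l as a transcribed processed pseudogene and Rpl32l as a processed pseudogene, and Rpl32l shares a run of 94 bases with Rpl32. GENCODE M21 names 298 pseudogenes after 60 of the 82 genes, and how the authors assigned reads shared with such copies is not given in the sources used here.

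The transcription starts of the genes that led the comparison, and of Rps27 and the muscle paralog, are shown next because the TOP tract lies there. Each window covers 30 bases on the gene's strand, 15 before and 15 from the annotated start (RefSeq, GRCm38.p6), and capitals mark a tract where one was found.
Rpl13a: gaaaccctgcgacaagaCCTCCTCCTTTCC
Rpl22: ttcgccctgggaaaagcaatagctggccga
Rpl11: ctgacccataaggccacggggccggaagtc
Rpl27: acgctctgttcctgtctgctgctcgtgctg
Rps23: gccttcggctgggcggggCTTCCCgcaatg
Rps19: tccgaaatctcgcgagactcgacgcccgac
Rps27: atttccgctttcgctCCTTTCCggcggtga
Rpl3l: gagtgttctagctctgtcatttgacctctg

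The windows lie at chr7:45128731-45128760 for Rpl13a, chr4:152325711-152325740 for Rpl22, chr4:136053379-136053408 for Rpl11, chr11:101442230-101442259 for Rpl27, chr13:90923107-90923136 for Rps23, chr7:24884577-24884606 for Rps19, chr3:90213634-90213663 for Rps27 and chr17:24727811-24727840 for Rpl3l. Rpl13a, Rpl11 and Rps27 lie on the minus strand and the others on the plus strand. A tract was counted where a C followed by at least 4 bases that were each C or T began within 5 bases of the annotated start, on the gene's strand. Of the tested members with a window, 27 of 58 held one (46.6%), against 1914 of 9429 other tested genes (20.3%) and 18.3% of all windows in the table. Annotated starts can lie some bases from the starts used in muscle, so a window without these letters says nothing of the factor. Rps29 and Rpl3 had no window in the table.

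Ank2 was read first as the check of the labels: its deposited log2 value spanned 8.40 to 9.22 in WT (median 8.98) and 7.54 to 8.03 in KO (median 7.68), with no overlap, a change of -1.15 (SE 0.14, limma adjusted p = 0.000883). The values cover the whole gene, not the deleted part. Estimated depth was 12278221 to 18709281 reads per library. The table gives values on a log2 scale with a shared floor of 5.57, near which differences are compressed. Markers of the labelled tissue were present: all 10 fibre markers were tested, and together they held 23.3% to 27.2% of scaled reads in WT and 23.9% to 26.2% in KO. Changes below are KO minus WT on the deposited log2 scale, each with its standard error (SE).

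Every tested member had a fitted change above 0 on the deposited values, in a comparison in which 47.6% of all tested genes did; after a correction for transcript length, given below, 72 of the 79 did. The median change over the 79 genes was 0.27, against -0.01 over all 12208 tested genes. An adjusted p at or under 0.05 in limma was reached by 7 genes, all higher in KO, which is 8.86% of the members. The background for a rise was 3.12% of all tested genes (percent called), for a fall 3.08%, a direction in which no member passed, and for either direction 6.2%. At an unadjusted p at or under 0.05 the counts were 62 members up and 0 down, 78.5% of the members against 11.9% of all tested genes for a rise. In 77 of the 79 genes at least 5 of the 6 KO libraries lay above the WT median, which held for 27.4% of all tested genes. A complete separation, every KO library above every WT library, was seen in 2 members, or 2.53%, beside 1.27% of all tested genes. The other 72 tested members did not pass, and in 77 of the 79 the groups overlapped. Other tested genes with transcripts as short as most members', under 1000 bases, had 5.82% that rose and 0.62% that fell at the adjusted threshold. Those of them at the members' level had 4.19% and 0.465%. The same level-matched genes gave 21.4% with an unadjusted rise and 50.2% with at least 5 of 6 KO libraries above the WT median. After the length correction the unadjusted counts of members were 45 up and 1 down. The share of all tested genes at that threshold is not given for the corrected fit, so these counts have no background here.

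**Figure D1:**
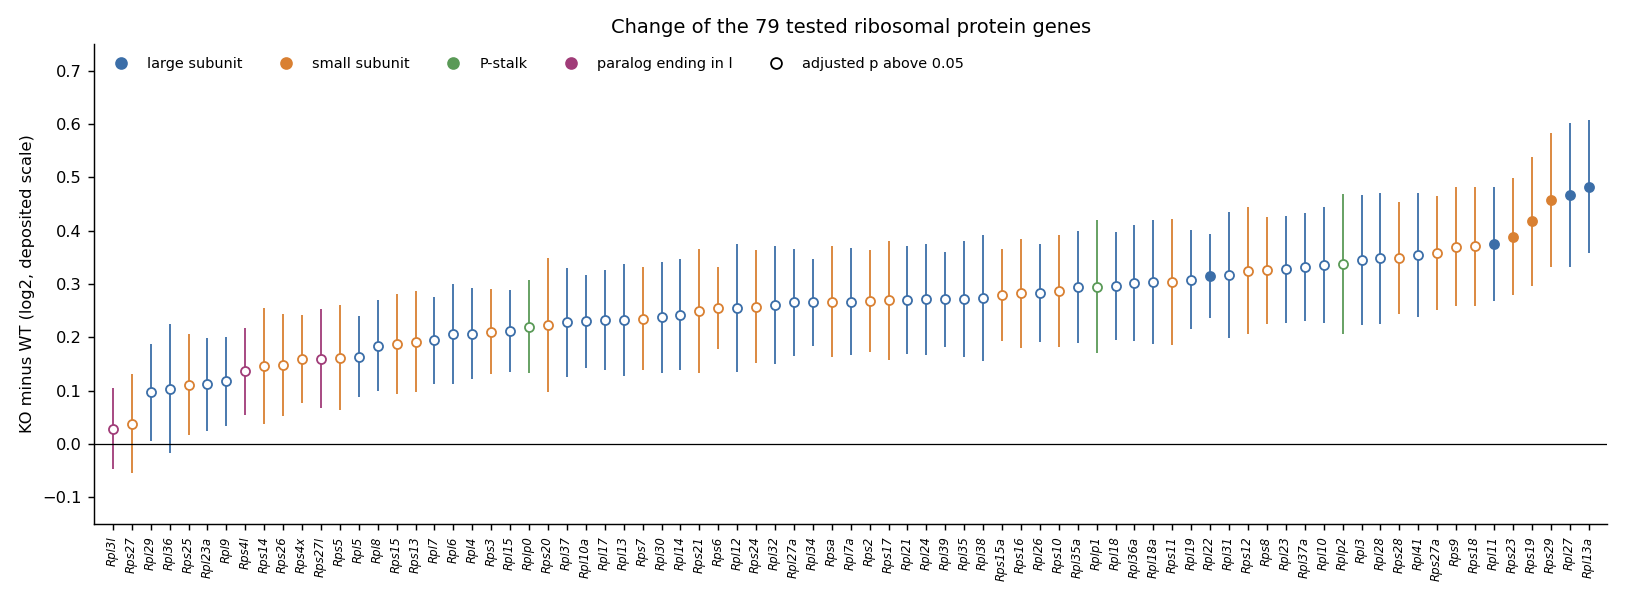
Change of each tested ribosomal protein gene, KO minus WT on the deposited log2 scale (points, fitted change; bars, SE; filled points, limma adjusted p at or under 0.05; colours, subunit or role). All 79 points lie above 0, from Rpl3l at 0.03 to Rpl13a at 0.48; Rpl12 is drawn at 0.26, without its value in WT 1.

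The 43 genes of the large subunit had a median change of 0.27. Among them, 4 rose (9.3%, against 3.12% of all tested genes), 0 fell and 39 did not pass the test. Rpl13a had the largest of these rises. It encodes a protein of the large subunit that is also known as a part of a translational silencing complex. Its values in WT 1 to WT 6 were 12.06, 11.94, 11.68, 12.27, 11.67 and 11.87, and in KO 1 to KO 6 they were 12.68, 12.30, 12.55, 11.97, 12.36 and 12.52. WT 4 was the highest WT library, and KO 4 alone of the KO libraries lay below it. The group means were 11.91 ± 0.23 and 12.40 ± 0.25 (SD, n = 6 each), or 0.48 apart (SE 0.12, limma adjusted p = 0.0351). The gene lies on chromosome 7 from 45125558 to 45128761 (mm10, minus strand), and its start carries the long tract printed above.

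Rpl22, whose protein binds RNA outside the ribosome too, was the member with the smallest adjusted p. Its values were 10.82, 10.73, 10.61, 10.87, 10.54 and 10.64 in WT 1 to WT 6, and 11.16, 10.93, 11.07, 10.94, 10.94 and 11.05 in KO 1 to KO 6. Every KO library lay above every WT library, with 0.31 between the group means (SE 0.08, limma adjusted p = 0.0304). The exact permutation p was 0.00216, and none of the 924 assignments can give a lower one. The gene lies on chromosome 4 from 152325742 to 152334071 (mm10, plus strand), and its printed start window held no tract.

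Rpl27 spanned 10.53 to 11.07 in WT (median 10.77) and 10.70 to 11.64 in KO (median 11.25), a rise of 0.47 (SE 0.14, limma adjusted p = 0.0498). Rpl11, whose protein forms the 5S particle with Rpl5 and binds the p53 regulator Mdm2, spanned 10.75 to 11.22 in WT (median 10.98) and 10.96 to 11.58 in KO (median 11.40). It rose by 0.37 (SE 0.11, limma adjusted p = 0.0483). In both genes 5 of the 6 KO libraries lay above the WT median and the ranges overlapped. Rpl29 and Rpl36 had the smallest changes of the subunit, 0.10 each (limma adjusted p = 0.519 and 0.612). In Rpl29 both groups reached the same highest value, 11.85.

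Rpl12, a protein at the base of the stalk, stood at the floor in WT 1 and between 11.03 and 11.78 in the other 11 libraries. As deposited its change was 1.20 (SE 0.94, limma adjusted p = 0.446), the largest of the family, and it rests on that library. With the WT 1 value treated as missing it was 0.26 (SE 0.12, limma adjusted p = 0.19), close to the family's median. Of the genes with at least 100 estimated reads in every other library, 5 stood at the floor in WT 1 alone: Rpl12, Hsp90aa1, Rrp1, Rrp12 and Rrp7a.

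The 30 genes of the small subunit had a median change of 0.27. Among them, 3 rose (10.0%, against 3.12% of all tested genes), 0 fell and 27 did not pass. Rps29, a small zinc-binding protein, spanned 10.27 to 10.76 in WT (median 10.37) and 10.44 to 11.19 in KO (median 10.95). It rose by 0.46 (SE 0.13, limma adjusted p = 0.0418), and KO 4 alone of the KO libraries lay below the highest WT value. Rps19, the gene most often mutated in Diamond-Blackfan anaemia, spanned 10.03 to 10.51 in WT (median 10.27) and 10.27 to 11.06 in KO (median 10.68), a rise of 0.42 (SE 0.12, limma adjusted p = 0.0499). Rps23, whose protein sits at the decoding site, spanned 11.06 to 11.55 in WT (median 11.32) and 11.42 to 11.96 in KO (median 11.66), a rise of 0.39 (SE 0.11, limma adjusted p = 0.0461). In all 3 genes all 6 KO libraries lay above the WT median, although the ranges overlapped.

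Rps6, the ribosomal protein phosphorylated by S6 kinase, was the other member whose groups did not overlap, and it was picked out after its values were seen. It spanned 11.21 to 11.49 in WT (median 11.36) and 11.51 to 11.71 in KO (median 11.61). The change of 0.25 (SE 0.08) did not pass the adjusted threshold (limma adjusted p = 0.0571). At the other end of the subunit, Rps27 spanned 9.96 to 10.39 in WT (median 10.22) and 9.97 to 10.36 in KO (median 10.24), nearly the same range. Its change was 0.04 (SE 0.09, limma adjusted p = 0.823), and the window printed above holds a tract. Rps25, at 0.11 (limma adjusted p = 0.473), was the next smallest.

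The P-stalk recruits the GTPases of elongation, and none of its 3 genes passed the test, although all 3 had an unadjusted p at or under 0.05. Rplp0, the anchor of the stalk, spanned 13.08 to 13.48 in WT (median 13.28) and 13.37 to 13.62 in KO (median 13.50), a difference of 0.22 (limma adjusted p = 0.128). Rplp1 gave 0.29 (limma adjusted p = 0.15) and Rplp2 gave 0.34 (limma adjusted p = 0.122), both above the family's median. Rpsa, a small-subunit protein that also serves as a laminin receptor precursor, spanned 12.52 to 12.98 in WT (median 12.72) and 12.83 to 13.28 in KO (median 13.00). Its difference was 0.27 (limma adjusted p = 0.125).

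The 6 paralogs divided into detected and undetected genes. Rpl10l, Rpl39l and Rpl32l stood at the floor, 0 estimated reads, in all 12 libraries and were not tested, while the ubiquitous partners of these genes gave 0.33 for Rpl10 (limma adjusted p = 0.0724), 0.27 for Rpl39 (limma adjusted p = 0.0765) and 0.26 for Rpl32 (limma adjusted p = 0.153). The 3 tested paralogs, Rpl3l, Rps27l and Rps4l, had a median change of 0.14, and none passed the test or reached an unadjusted p of 0.05.

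By estimated level per length, Rpl3l was one of the most abundant ribosomal protein mRNAs of this muscle, and Rpl3 one of the least. Rpl3l lies on chromosome 17 from 24727820 to 24736143 (mm10, plus strand) and Rpl3 on chromosome 15 from 80077791 to 80091868 (minus strand). Levels were compared in estimated TPM, scaled reads divided by transcript length and then brought to the same total in each library. On this scale Rpl3l stood at 789 ± 34.9 in WT and 774 ± 28.2 in KO, and Rpl3 at 53.4 ± 10.4 and 67.6 ± 14.0 (SD, n = 6 each). Ordered by this WT level, Rpl3l was in place 9 of 82 and Rpl3 in place 78. The order rests on 1 transcript length per gene, such as 3706 bases for Rps20 in place 77. It also depends on how reads shared with pseudogenes were assigned, which is not known. Rpl12, in place 71, includes its floor value in WT 1. Above Rpl3l stood Rps25 at 794 ± 51.9, which does not differ from it beyond the spread, and Rps2 led the family at 1202 ± 48.5. Below Rpl3 stood Rps4l at 4.44 ± 0.95 and the 3 undetected paralogs. Rpl3l thus made up 93.7% ± 1.00 of the pair's level per length over the WT libraries and 92.0% ± 1.60 over the KO libraries (SD, n = 6 each).

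The deposited values of Rpl3l were 13.12, 12.99, 12.92, 13.12, 12.91 and 12.96 in WT 1 to WT 6, and 12.97, 13.08, 13.06, 12.92, 13.07 and 13.07 in KO 1 to KO 6. The groups overlapped over nearly their whole range, and the change of 0.03 (SE 0.08, limma adjusted p = 0.844) was the smallest of the family. Rpl3 had 9.47, 9.17, 9.22, 9.01, 9.46 and 9.37 in WT 1 to WT 6, and 9.83, 9.13, 9.80, 9.45, 9.61 and 9.93 in KO 1 to KO 6. KO 2 lay among the lower WT libraries and KO 4 among the upper ones, while the other 4 KO libraries lay above all of WT. The change of 0.34 (SE 0.12) did not pass (limma adjusted p = 0.0954).

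The difference within a pair was tested in each library as the paralog minus its ubiquitous gene, over 3 pairs. Rpl3l minus Rpl3 spanned 3.45 to 4.12 in WT (median 3.68) and 3.14 to 3.95 in KO (median 3.36). The means were 3.72 ± 0.23 and 3.40 ± 0.30 (SD, n = 6 each), a shift of -0.32 that did not pass (exact permutation p = 0.0714; adjusted over the 3 pairs, 0.107). With 1 library left out the shift lay between -0.426 without KO 2, the highest KO value (adjusted exact permutation p = 0.039), and -0.238 without WT 4, the highest WT value (adjusted exact permutation p = 0.16).

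Rps27l, known as a target of p53, spanned 9.71 to 10.24 in WT (median 9.95) and 9.93 to 10.25 in KO (median 10.18), a change of 0.16 (limma adjusted p = 0.283). The difference Rps27l minus Rps27 spanned -0.44 to -0.09 in WT (median -0.19) and -0.26 to -0.01 in KO (median -0.07). Its shift of 0.12 had the opposite sign to that of Rpl3l and Rpl3 and did not pass either (exact permutation p = 0.0693; adjusted, 0.107). With 1 library left out it lay between 0.077 without WT 1 (adjusted exact permutation p = 0.208) and 0.154 without KO 5, the lowest KO value (adjusted exact permutation p = 0.026). Per length, Rps27l made up 37.0% ± 2.13 of this pair in WT libraries and 39.2% ± 1.60 in KO libraries (SD, n = 6 each). Rps27rt, a related gene outside the symbol rule, had a mean of 9.85 in WT and 9.83 in KO. Its change was -0.02 (limma adjusted p = 0.913). How any reads shared between Rps27rt and Rps27 were assigned is not known, and the level of Rps27 and this share depend on it.

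Rps4l was close to the floor, with 22.7 to 65.1 estimated reads per library. Rps4l minus Rps4x averaged -5.03 ± 0.20 over WT and -5.05 ± 0.09 over KO libraries (SD, n = 6 each), a shift of -0.02 with an exact permutation p of 0.812. On log2 scaled reads, where low values are not compressed, the same shift was 0.17 (adjusted exact permutation p = 0.377), so its sign depends on the scale. No pair passed the adjusted threshold with all 12 libraries.

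**Figure D2:**
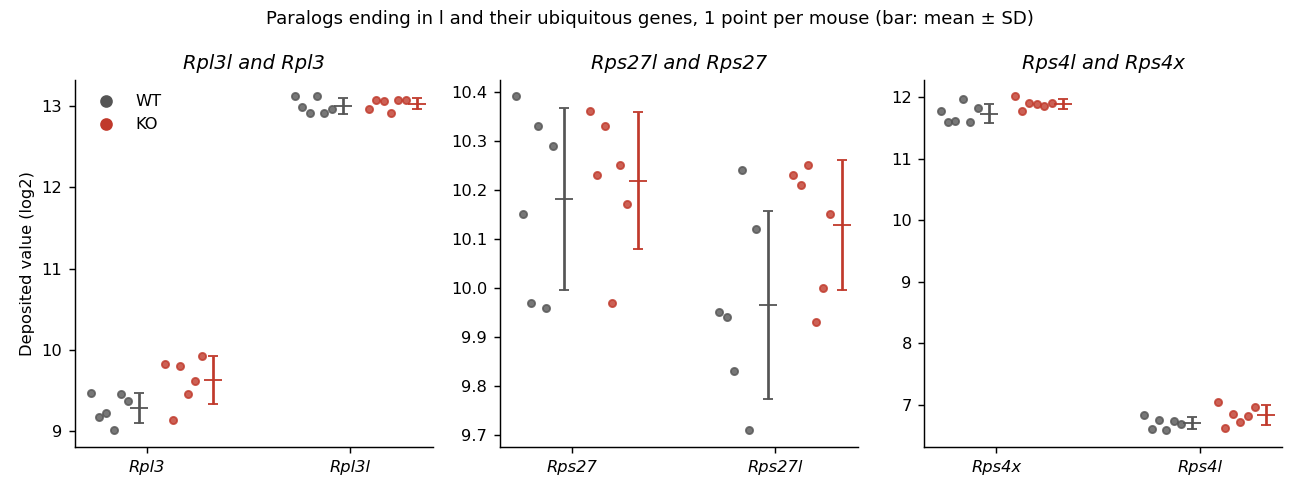
Deposited log2 values of the 3 tested paralogs and their ubiquitous genes, 1 point per mouse, with mean ± SD beside each group; each panel has its own axis. Rpl3l stays at 12.91 to 13.12 in WT and 12.92 to 13.08 in KO, while Rpl3 spans 9.01 to 9.47 in WT and 9.13 to 9.93 in KO.

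A ubiquitous and a muscle form also exist of the elongation factor eEF1A, which delivers aminoacyl-tRNA to the ribosome. Eef1a1, the ubiquitous form, was 11.64 to 12.00 in WT and 11.65 in KO 2, but 12.51 to 13.25 in the other 5 KO libraries. It rose by 0.87 (SE 0.21, limma adjusted p = 0.0335). Eef1a2, the form of adult muscle and neurons, stayed at 14.61 to 14.78 in WT and 14.46 to 14.69 in KO, a change of -0.05 (limma adjusted p = 0.716). The difference Eef1a2 minus Eef1a1 averaged 2.84 ± 0.21 over the WT libraries and 1.92 ± 0.63 over the KO libraries (SD, n = 6 each), with KO 2 at 3.04.

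Within the family, the members varied together from library to library. After the group mean was subtracted, the median correlation between 2 members over the 12 libraries was 0.85 (3003 pairs of 78 genes, Rpl12 left out); all pairs share the libraries and their scaling. Rpl3 had the lowest median correlation with the other members, 0.25, followed by Rps4l at 0.35 and Rpl3l at 0.64. Of 10 relations of deviations that were computed, chosen after values were seen, the highest was Rpl3 with Rps4l (r = 0.885, rho = 0.902; permutation p adjusted over the 10, 0.00603 and 0.0071). Without KO 2 and WT 4, the libraries farthest from the median in Rpl3, r was 0.795. The r of this pair was also the highest of the 77 that either gene had with other members. The adjustment over the 10 does not cover a choice made from the values, so its p-values are descriptive only. Rpl3 with Eef1a1 gave r = 0.866 and rho = 0.846 (adjusted permutation p = 0.00603 and 0.012), and r = 0.704 without those libraries. With the mean of the other 74 ubiquitous members Rpl3 gave r = 0.261 and rho = 0.301 (adjusted permutation p = 0.471 and 0.423), and r was 0.672 without KO 2 and WT 4, 0.536 without WT 4 alone and 0.211 without KO 2 alone. Rpl3 and Rpl3l gave r = -0.118 and rho = -0.0839 (adjusted permutation p = 0.705 and 0.806), or 0.47 without the same libraries.

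Within each genotype the libraries spanned a wider range than the distance between the groups. The median deviation of 75 ubiquitous members from their 12-library means was 0.01, -0.22, -0.29, 0.12, -0.35 and -0.06 in WT 1 to WT 6, and 0.32, 0.05, 0.23, -0.10, 0.08 and 0.20 in KO 1 to KO 6. WT 4 thus lay above KO 2, KO 4 and KO 5, and KO 4 lay below WT 1, WT 4 and WT 6. The members held 1.29% to 1.59% of scaled reads in WT and 1.49% to 2.04% in KO.

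**Figure D3:**
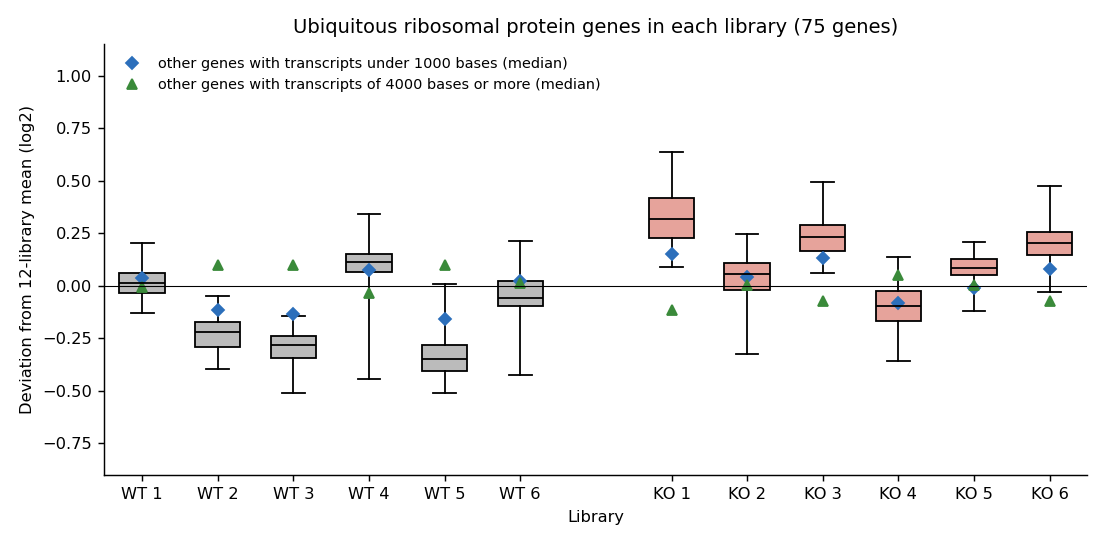
Deviation of 75 ubiquitous ribosomal protein genes from their mean over the 12 libraries, on the log2 scale (line, median; box, quartiles; whiskers, full range), with the medians of other short and long genes as points. The medians run from -0.35 in WT 5 to 0.32 in KO 1, WT 4 and KO 4 overlap the other group, and the points for short genes move the same way as the boxes in most libraries.

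Transcript length moved with these deviations. The tested members had a median transcript length of 729 bases, and 61 of the 79 were under 1000 bases; the other tested genes had a median of 2850 bases. The 807 other tested genes under 1000 bases had a median change of 0.09, and the 215 of them at the members' level had 0.10, with 75.8% above 0. The 3539 other genes of 4000 bases or more had a median change of -0.08. After the trend of each library with length was removed, the median change of the members was 0.16 and 72 of the 79 were above 0. In this fit 7 passed, beside 3.07% of all tested genes that rose: Rpl11, Rpl13a, Rpl23, Rpl27, Rps19, Rps23 and Rps29. Rpl22 then gave 0.17 and did not pass (limma adjusted p = 0.101), Rpl3l gave -0.03, Rps27 gave -0.13 and Rps27l gave 0.02, none of them past the threshold. The part of RNA quality in these values was not tested.

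**Figure D4:**
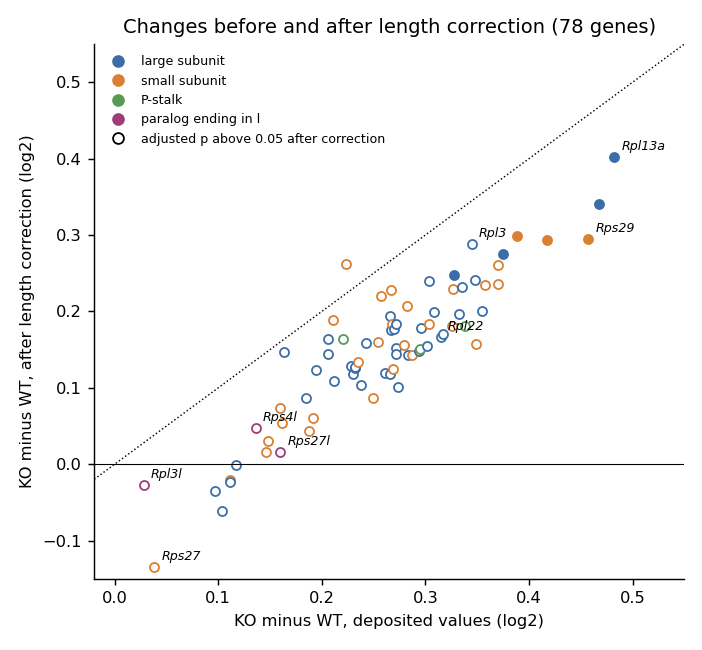
Change of 78 members (Rpl12 left out), KO minus WT in log2, on the deposited values (horizontal axis) and after removal of the trend with transcript length (vertical axis); the dotted line marks equality and filled points passed limma after the correction. Most points lie below the line: Rpl13a moves from 0.48 to 0.40, Rpl22 from 0.31 to 0.17 and Rps27 from 0.04 to -0.13.

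The symbol rule left out a few genes of ribosomal proteins. Of 8 tested, 1 rose (12.5%, against 3.12% of all tested genes), 0 fell and 7 did not pass, with a median change of 0.23. Rpl36al, a paralog of Rpl36a that encodes a nearly identical protein, spanned 9.87 to 10.51 in WT (median 10.21) and 10.25 to 10.94 in KO (median 10.69), a rise of 0.43 (SE 0.12, limma adjusted p = 0.048) that did not pass in 9 of the 12 fits with 1 library left out. Among the 9 tested genes of translation elongation, the kinase gene Eef2k among them, 2 rose (22.2%) and 0 fell, with a median of 0.15. Beside Eef1a1 these included Eef1b2, a subunit of the exchange factor of eEF1A, which spanned 10.65 to 10.99 in WT (median 10.81) and 10.96 to 11.43 in KO (median 11.20), a rise of 0.37 (SE 0.10, limma adjusted p = 0.0422). Eef1a1 and Eef1b2 each lost the call in 8 of the 12 fits with 1 library left out.

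The other parts of the translation pathway were close to the median of all genes. None of 37 initiation factor genes passed, at 3 up and 2 down with an unadjusted p at or under 0.05, and their median change was 0.01; the smallest p-values were those of the eIF3 subunit genes Eif3h (0.21, limma adjusted p = 0.0985) and Eif3g (0.26, limma adjusted p = 0.0995). Of 35 genes of ribosome assembly and rRNA processing, 1 passed, higher in KO, which is 2.86% beside the 3.12% of all tested genes, and the median was 0.04. It was Rrs1, an assembly factor of the large subunit, which spanned 8.38 to 8.57 in WT (median 8.47) and 8.57 to 8.81 in KO (median 8.70), a change of 0.22 (SE 0.06, limma adjusted p = 0.0438). Rrs1 did not pass in 15 of 26 alternative settings, among them the length correction, the fit without the filter and 11 of the 12 fits with 1 library left out, with changes of 0.20 to 0.29 and limma adjusted p of 0.031 to 0.0984 over all 26. None of 20 genes of RNA polymerase I and its factors passed, at 0 up and 1 down unadjusted, with a median of 0.06. Twistnb gave -0.22 (limma adjusted p = 0.118) and Polr2f 0.24 (limma adjusted p = 0.237). None of 18 genes of mTORC1 and its control of ribosomal protein synthesis passed, at 2 up and 3 down unadjusted, with a median of -0.04. The transcription factor gene Myc gave 0.28 (limma adjusted p = 0.0806) and the S6 kinase gene Rps6kb1 -0.18 (limma adjusted p = 0.122).

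Markers of other cell types were read beside these counts. The summed level of the 5 satellite cell markers was 30.9 to 33.5 estimated CPM in WT and 23.0 to 28.7 in KO, with no overlap. Cdh15, at a WT mean of 8.88 against 6.26 to 6.76 for the other 4 on the deposited scale, fell by 0.37 (limma adjusted p = 0.0341). The other 4 did not pass: Pax7 gave 0.06, Vcam1 0.09, Myf5 -0.002 and Chrdl2 -0.03 (limma adjusted p of 0.634 to 0.989). The sums of 8 endothelial markers (280 to 408 and 246 to 403), 9 macrophage markers (24.6 to 105 and 33.3 to 99.7), 7 fibroblast markers (274 to 769 and 375 to 722), 6 smooth muscle and pericyte markers (374 to 587 and 295 to 533), 6 Schwann cell markers (69.8 to 222 and 31.0 to 449) and 5 erythroid markers (50.9 to 89.2 and 23.0 to 98.9) overlapped between WT and KO. Flt1 and Myh11 fell (-0.50 and -0.54, limma adjusted p = 0.0347 and 0.0418), as did Adipoq, 1 of 3 tested of 5 adipocyte markers (-0.34, limma adjusted p = 0.043; sums 3.77 to 13.8 and 2.18 to 8.52). None of the 5 T cell markers passed the filter, with sums of at most 0.858 in WT and 0.643 in KO. Within overlapping sums some lists leaned to 1 side. All 6 smooth muscle and pericyte markers had fitted changes below 0 (median -0.33, 4 with an unadjusted p at or under 0.05; median sums 551 in WT and 442.5 in KO), as did 7 of 8 endothelial markers (median -0.22, 4 unadjusted; 372 and 279), all 6 Schwann cell markers (median -0.12, 0 unadjusted) and all 5 erythroid markers (median -0.14, 1 unadjusted). Above 0 were 8 of 9 macrophage markers (median 0.22, 1 unadjusted in each direction; median sums 43.4 and 61.7) and 6 of 7 fibroblast markers (median 0.17, 0 unadjusted). The part of other cells in the members' values was not tested.

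The 7 calls depended on single libraries: each was lost in 7 to 9 of the 12 fits with 1 library left out, and in 7 to 15 of all 26 alternative settings. Without WT 2, WT 3, WT 5, WT 6, KO 1, KO 3 or KO 6 no member passed limma. In those fits 39 to 57 members had an unadjusted p at or under 0.05. The share of all tested genes at that unadjusted threshold is not given for these fits, so the counts have no background here. Without WT 1 or KO 5 there were 3 calls, and without WT 4, KO 2 or KO 4 there were 25, 21 and 26. Of all tested genes, 0.868% to 1.57% rose at the adjusted threshold in the fits with no member call. The share was 1.56% without WT 1, 3.01% without KO 5, 3.74% without WT 4, 5.59% without KO 2 and 3.74% without KO 4. The median change of the members lay between 0.22 and 0.31 in all of these 12 fits.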

How the data were processed

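The members and gene lists were chosen with earlier results of these data known. The authors deposited 1 table of log2 values for 24528 genes in 12 libraries; per the submitters' processing notes, fastp, STAR, featureCounts and mm10 were used, and no source used here gives the transformation, annotation or strand setting. The libraries came from a kit that does not mark strand, per the labels' protocols. The closed form of a variance-stabilizing transformation was inverted to estimate reads, with the smallest step in a library as 1 read; 89.5% to 93.8% of low values came within 0.1 of a whole number. The estimates served the filter, depth and levels per length, and a read count carries counting error only.

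The 12208 genes with 10 or more estimated reads in 6 or more libraries entered limma 3.58.1 (R 4.3.3; group as the only term, variance trend, robust moderation, Benjamini-Hochberg over all of them, threshold 0.05). Positions and lengths are from GENCODE M21. Length was corrected by a smooth trend per library. Pair differences used exact two-sided permutation tests over 924 assignments. Named genes were each paralog and its partner, all calls, the 5 highest and 5 lowest changes, the 5 smallest p-values, the P-stalk genes and Rpsa, and in each list the calls or else the 2 smallest p-values. The fit was tested on simulated data. Mice were the replicates.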

Additional observations from a re-analysis of the deposited data

Results flagged for a closer look

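Rpl12 in WT 1 stood far from the other WT libraries. Its deposited value there was the floor, 5.57, and the gap to the nearest WT library was 0.902 of the whole WT range, above the critical value for 6 samples. Of 76 groups of 6 checked in this way, it was the only one past that value, where chance gives about 1 in 20 of groups that vary. The 76 include the groups of Rpl10l, Rpl39l and Rpl32l, which stood at the floor throughout and could not be flagged. The gene had at least 1655 estimated reads in every other library, and Hsp90aa1, Rrp1, Rrp12 and Rrp7a stood at the floor in the same library alone.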

How the results depend on the processing

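The 26 alternative settings changed the number of calls, not the direction of any named change past the threshold. The count of members past the threshold was 7, in a fit where 3.12% of all tested genes rose. It became 3 without the filter (2.59% of all tested genes rose) and 4 without robust moderation (2.89%). It was 22 with array weights (4.58%), 27 after quantile normalization (4.05%) and 29 at a threshold of 0.1 (6.05%). With the length correction and a replicate block together it was 3 (2.89%). With 1 library left out it was 0 to 26. Over these fits 0.868% to 5.59% of all tested genes rose, with 3.74% beside the 26 calls and 5.59% beside 21 calls. Of the 7 called genes, 3 were still called without the filter, 4 without robust moderation, 4 with the replicate block, 3 with the block and length correction, and 0 to 7 with 1 library left out. In the pathway lists the 4 calls became 2 without the filter, 8 with array weights, 9 after quantile normalization, 12 at a threshold of 0.1 and 0 to 7 with 1 library left out. With 1 library left out, the shift was -0.426 to -0.2376 for Rpl3l minus Rpl3, past the threshold without KO 2 alone, and 0.077 to 0.1542 for Rps27l minus Rps27, past it without KO 5 alone. The cause of these differences was not tested. The length correction with the block and the treatment of isolated floor values as missing were chosen after seeing the data.

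The labels do not say whether the replicate numbers pair the mice. Deviations of same-numbered libraries correlated at -0.361 to 0.291, and only number 1 had its best match in its own number. Such correlations cannot settle whether the mice were paired. With the replicate block 5 members were called (Rpl13a, Rpl22, Rpl3, Rps19 and Rps23), beside 2.91% of all tested genes that rose. Among the tested members depth limits Rps4l most.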
